A study of Mus musculus with 8 samples.

Results

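The epidermal differentiation complex is a dense gene cluster on mouse chromosome 3 whose products build the cornified envelope, the crosslinked protein shell that replaces the plasma membrane of dying keratinocytes. Involucrin and loricrin, the small proline-rich proteins (Sprr) and the late cornified envelope proteins (Lce) are precursors that transglutaminases join into this shell. The S100 fused-type proteins, among them trichohyalin and the filaggrin family, bind and organise keratin filaments, and the S100a genes at both ends of the cluster encode small calcium-binding proteins, many of which are made far beyond keratinocytes. Trichohyalin is best known from the inner root sheath and medulla of the hair follicle. Members were taken by name: all genes of the RPKM table starting with Lce, Sprr or S100a, together with *Lor*, *Ivl*, *Flg*, *Flg2*, *Hrnr*, *Rptn*, *Tchh*, *Tchhl1*, *Crnn*, *Crct1* and *Kprp*. This gave 57 of 23358 genes, of which 2 were *Lor* and *Ivl*, 15 Sprr, 18 Lce, 6 S100 fused-type, 2 *Kprp* and *Crct1* and 14 S100a. *Flg* was not analysed here. All 57 lay on chromosome 3 between positions 90511034 and 93564645 (mm10).

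RNA-seq was carried out on mouse incisor dental epithelium from 4-week-old *Med1* cKO mice and littermate controls (Ctrl), all C57BL/6. In cKO mice, *Cre* driven by the *Krt14* promoter removed floxed exons of *Med1*, a subunit of the Mediator complex, from *Krt14*-expressing epithelial cells and their descendants, and other cells of a dissected tissue kept the gene. Ctrl mice were negative for *Cre*. From the cervical loop, where the dental epithelial stem cells reside, CLH (stem cell part) and CLT (their progenies, on the way to ameloblasts) were dissected, with 2 libraries for each of the 4 combinations of tissue and genotype. Mice came from 2 litters, and cervical loop tissue was pooled, but which library came from which litter is not given in the sources used here. Reads on genes ranged from 22330512 in Ctrl CLH 2 to 28651106 in Ctrl CLH 1. Levels are RPKM, reads scaled to gene length and library total, so that genes can be compared per length. Within a group, replicate 1 is given before replicate 2 throughout, and p-values measure only the spread between such libraries.

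To check the labels, *Med1* itself comes before the complex. It was at 7.71 and 9.12, 7.10 and 7.03, 4.83 and 8.71, and 9.15 and 8.96 RPKM in the libraries labelled Ctrl CLH, cKO CLH, Ctrl CLT and cKO CLT, respectively. The libraries labelled cKO CLH were below those labelled Ctrl CLH, whereas those labelled cKO CLT were not below those labelled Ctrl CLT. The log2 differences were -0.22 ± 0.11 (SE, limma adjusted p = 0.708) in CLH and 0.42 ± 0.30 (SE, limma adjusted p = 0.357) in CLT. These values cover the whole gene and cells without *Cre*, and they do not separate the genotypes, so groups are named by their labels. Whether the CLT libraries carry the right labels, and whether Ctrl CLT 1, the lowest in *Med1*, holds tissue of another source, was not tested. Every CLT difference below depends on those labels. The second check was of tissue. Ameloblast genes (*Amelx*, *Ambn*, *Enam*, *Amtn*, *Odam*, *Klk4*, *Mmp20*), which define enamel-forming epithelium, summed to 13477 and 12504, 13658 and 14318, 84584 and 37392, and 19.7 and 15.8 RPKM in the libraries labelled Ctrl CLH, cKO CLH, Ctrl CLT and cKO CLT, respectively. They were thus present in CLH and in both libraries labelled Ctrl CLT, and near 0 in those labelled cKO CLT. All 7 fell between the libraries labelled Ctrl CLT and those labelled cKO CLT (limma, adjusted p under the threshold of 0.05), as did 1.68% of all genes tested. *Amelx* fell by a log2 difference of -12.31 ± 0.57 (SE, limma adjusted p = 0.0204). All 7 calls were lost with voom (adjusted p 0.0521 to 0.0743), those of all but *Klk4* with limma and no filter (adjusted p 0.0784 to 0.0922), and that of *Odam* with either library labelled cKO CLT left out (limma adjusted p = 0.164 and 0.169). Fewer cells of a type and less RNA per cell cannot be told apart in such bulk tissue.

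The Ctrl CLT libraries differed from each other far more than other pairs. Among the 14148 genes tested, the median absolute log2 difference between them was 0.404, and 34.6% of the genes differed by more than 1.5-fold. In the other groups the median was 0.0922 (Ctrl CLH), 0.113 (cKO CLH) and 0.105 (cKO CLT), with 1.12%, 1.02% and 0.763% of the genes beyond 1.5-fold. Members outside the S100a class summed to 1750.1 RPKM in Ctrl CLT 1 and 3.32 RPKM in Ctrl CLT 2. In the libraries labelled cKO CLT these sums were 5247 and 5586, and in the CLH libraries they ran from 1.6 to 14.6. Ctrl CLT 1 therefore lay between CLH and cKO CLT, and Ctrl CLT 2 lay at the level of CLH. For each comparison that uses Ctrl CLT, the members called are counted below with both libraries and without each of them.

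Level and detection separated the classes (the plot of each member by position). In the libraries labelled cKO CLT, 37 and 38 of the 57 members reached an RPKM of 1. In Ctrl CLT 1 and Ctrl CLT 2 the numbers were 33 and 12, and in the CLH libraries they ran from 10 to 14, most of them S100a genes. A total of 3 members, *Sprr2a1*, *Sprr2a2* and *Sprr2b*, had no read in any library. *Sprr2a1* and *Sprr2a2* are listed with the same coordinates and coding length, so a read could not be given to either alone, and values of other close copies within Sprr2 and Lce1 are uncertain for a similar reason. Genes entered the tests when 2 or more libraries reached an RPKM of 1. This left 38 members tested and 19 not tested, and 22 of the 38 passed only through the libraries labelled cKO CLT, where they were high. Counts over tested members are therefore a description, and medians are given over all 57.

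**Figure D1:**
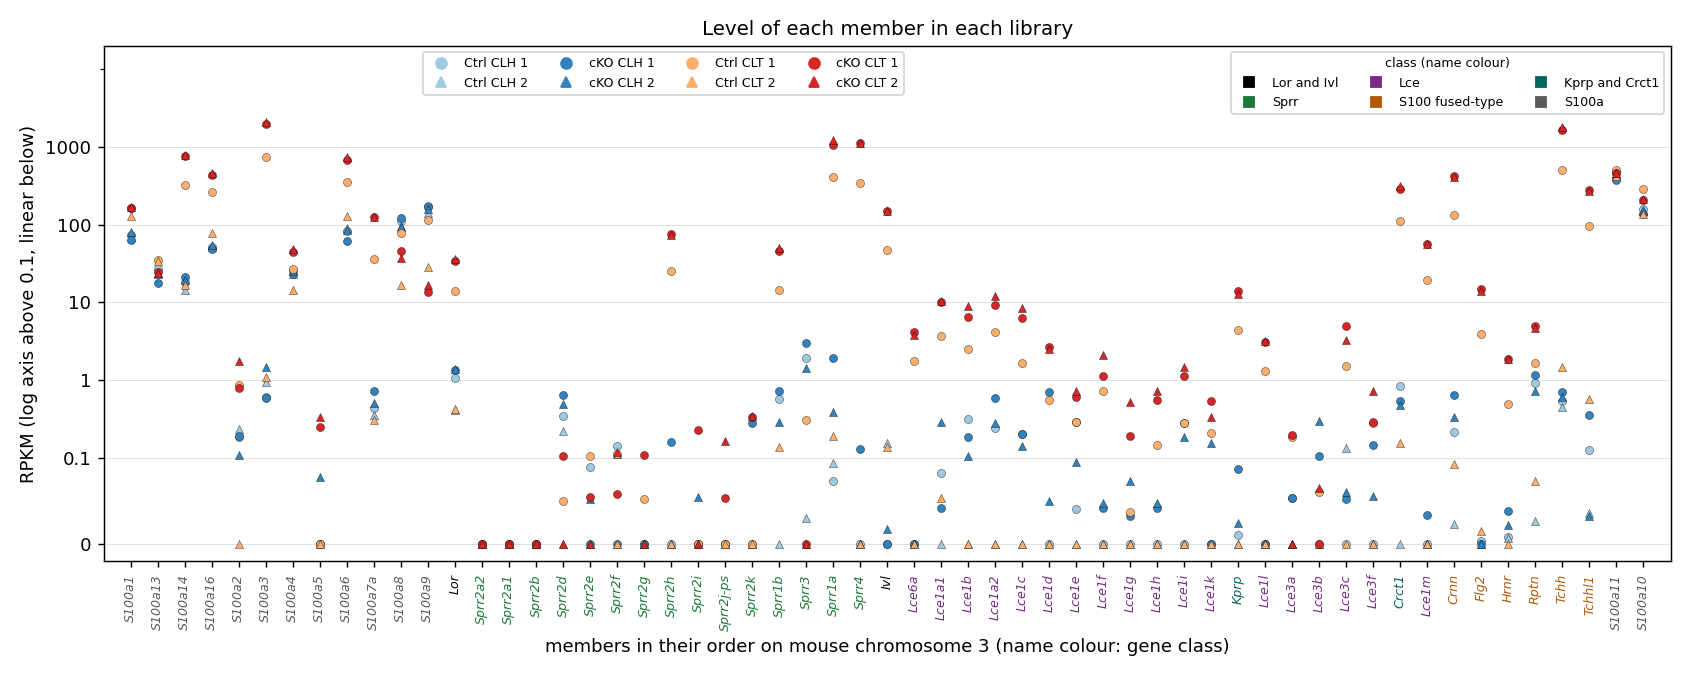
Level (RPKM, log axis above 0.1) of the 57 members in their order on mouse chromosome 3, 1 point for each of the 8 libraries, with libraries coloured by labelled group and shaped by replicate. Points of the libraries labelled cKO CLT and of Ctrl CLT 1 stand above the rest for most genes outside the S100a class, and *S100a11* is alike in all 8.

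To ask how the complex differed between genotypes among the stem cell progenies, the libraries labelled cKO CLT were compared with those labelled Ctrl CLT. Both libraries labelled cKO CLT lay above both labelled Ctrl CLT for 40 of the 57 members and below them for 2, with 12 overlapping and 3 at 0 throughout. Over all 23358 genes the shares without overlap were 28.6% higher and 24.9% lower. The median difference over the 57 members was 1.19 on the log2(RPKM + 1) scale, against -0.01 over the genes tested. That scale understates changes of genes at low level. By limma, 0 members passed the adjusted threshold of 0.05, while 0.0777% of the genes tested were called higher and 1.68% lower. Before adjustment, p was under 0.05 for 14 higher members and 1 lower one, and for 19.8% and 16.4% of the genes tested. A fit of the recovered reads with voom also called 0 members and 0 genes. With 2 against 2 libraries, the smallest p that exact permutation can give is 0.333.

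Whether members passed depended on the Ctrl CLT pair. With Ctrl CLT 1 left out, limma called 34 members higher and 2 lower, and 31.4% and 38.1% of all genes tested. With Ctrl CLT 2 left out, it called 30 higher and 5 lower, and 29.1% and 23% of all genes tested. In both fits the spread came from the pair labelled cKO CLT, and the lone control was assumed to vary like it. Over the 57 members the median became 1.52 and 0.78 in these 2 fits, in that order. With every library in a single fit that shares 1 estimate of the spread, 19 members were called higher and 2 lower, and 23.7% and 20% of all genes tested.

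*Ivl*, which encodes involucrin, an early scaffold of the cornified envelope, was at 0 and 0.156, 0 and 0.0178, 47.2 and 0.138, and 149 and 151 RPKM in the libraries labelled Ctrl CLH, cKO CLH, Ctrl CLT and cKO CLT, respectively. Loricrin, the main envelope protein of the terminally differentiated cell, is encoded by *Lor*, which was at 1.08 and 0.418, 1.33 and 1.41, 13.8 and 0.423, and 34.1 and 36.7 RPKM in the same order. Both genes were highest in the libraries labelled cKO CLT, intermediate in Ctrl CLT 1 and at CLH levels in Ctrl CLT 2, and the CLT groups did not overlap. Where other genes are said to share this order of libraries, only cKO CLT above Ctrl CLT 1 above all others is meant. The log2 difference between cKO and Ctrl in CLT was 4.35 ± 1.90 (SE, limma adjusted p = 0.184) for *Ivl* and 2.99 ± 1.20 (SE, limma adjusted p = 0.161) for *Lor*. Leaving out Ctrl CLT 1 gave 7.05 (limma adjusted p = 1.8e-06) and 4.68 (limma adjusted p = 6.7e-06), and leaving out Ctrl CLT 2 gave 1.65 (limma adjusted p = 0.00033) and 1.29 (limma adjusted p = 0.00066). *Ivl* lies at chr3:92570902-92573715 and stood above *Lor* per length in the libraries labelled cKO CLT, whereas in every CLH library *Lor* stood above *Ivl*.

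The Sprr genes encode short proline-rich precursors that act as cross-bridges between other envelope proteins. *Sprr1a* was at 0.0736 and 0.0942, 1.95 and 0.385, 407 and 0.190, and 1047 and 1219 RPKM in the libraries labelled Ctrl CLH, cKO CLH, Ctrl CLT and cKO CLT, respectively. Values of *Sprr4* were 0 and 0, 0.128 and 0, 343 and 0, and 1136 and 1112 RPKM in the same order. *Sprr2h* was at 0 and 0, 0.159 and 0, 25.2 and 0, and 75.6 and 73.4 RPKM. These were high in the libraries labelled cKO CLT, lower in Ctrl CLT 1 and at or near 0 elsewhere. *Sprr1b* had 0.567 and 0, 0.723 and 0.289, 14.6 and 0.138, and 45.8 and 49.5 RPKM, with the same order of libraries. *Sprr3*, a gene of oral and oesophageal lining epithelium, was at 1.93 and 0.0304, 3.03 and 1.44, 0.308 and 0, and 0 and 0 RPKM. It went the other way: it was present in Ctrl CLH 1 and in the cKO CLH libraries and had no read in either library labelled cKO CLT.

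In CLT the log2 difference between cKO and Ctrl was 5.68 ± 2.96 (SE, limma adjusted p = 0.238) for *Sprr1a*, 5.92 ± 2.96 (SE, limma adjusted p = 0.224) for *Sprr4* and -0.19 ± 0.22 (SE, limma adjusted p = 0.553) for *Sprr3*. In the fit without Ctrl CLT 1, the difference of *Sprr4* was 10.13. Without Ctrl CLT 2 the difference was 1.71 for *Sprr4* and -0.39 for *Sprr3*. Against Ctrl CLT 2 alone, where *Sprr4* had 0 reads (which allows up to 3), the mean of the libraries labelled cKO CLT was at least 2301-fold higher. Of the 15 Sprr genes, 10 did not pass the filter, and none of these exceeded 0.653 RPKM in any library. The class median difference of 0.05 (0.12 without Ctrl CLT 1, 0.0012 without Ctrl CLT 2) reflected these, since the cluster of Sprr2 genes other than *Sprr2h* was at or near 0 throughout.

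The Lce genes encode precursors that are added late, from the inside of the envelope, and their summed level in the libraries labelled cKO CLT was the lowest of the 6 classes. *Lce1m* was at 0 and 0, 0.0338 and 0, 19.7 and 0, and 56.3 and 55.9 RPKM in the libraries labelled Ctrl CLH, cKO CLH, Ctrl CLT and cKO CLT, respectively. For *Lce1a2* the values were 0.244 and 0, 0.580 and 0.284, 4.11 and 0, and 9.18 and 12.2 RPKM, and for *Lce1a1* 0.0821 and 0, 0.0418 and 0.287, 3.67 and 0.0531, and 10.1 and 10.5 RPKM. Next came *Lce1b* with 0.314 and 0, 0.183 and 0.105, 2.48 and 0, and 6.40 and 8.90 RPKM. In all 4 the libraries labelled cKO CLT were highest, Ctrl CLT 1 was intermediate and Ctrl CLT 2 had 0 or 1 read. *Lce1c* was at 0.201 and 0, 0.205 and 0.140, 1.65 and 0, and 6.31 and 8.41 RPKM. Of the 18 Lce genes, 16 were higher without overlap in the libraries labelled cKO CLT than in those labelled Ctrl CLT and 2, *Lce3a* and *Lce3b*, overlapped, where 28.6% of all genes were higher without overlap. Their median difference in CLT was 1.23, with 3.65 ± 1.54 (SE, limma adjusted p = 0.174) for *Lce1m* and 2.35 ± 0.54 (SE, limma adjusted p = 0.0814) for *Lce1c*. All 11 that passed the filter were called higher without Ctrl CLT 1 and 10 of the 11 without Ctrl CLT 2, *Lce1m* by 5.84 (limma adjusted p = 3.1e-06) and 1.46 (limma adjusted p = 0.00041), respectively, in fits that called 31.4% and 29.1% of the genes tested higher. Against 0 reads in Ctrl CLT 2, *Lce1m* was at least 436-fold higher in the mean of the libraries labelled cKO CLT.

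Of the S100 fused-type genes, *Tchh* (trichohyalin, which hardens the inner root sheath by crosslinking to keratin) was the most abundant, at 0.544 and 0.454, 0.702 and 0.610, 509 and 1.48, and 1636 and 1801 RPKM in the libraries labelled Ctrl CLH, cKO CLH, Ctrl CLT and cKO CLT, respectively. *Crnn*, cornulin of stratified squamous epithelium, was at 0.214 and 0.0229, 0.637 and 0.333, 133 and 0.0924, and 418 and 410.2 RPKM. *Tchhl1*, a trichohyalin-like gene, was at 0.127 and 0.0360, 0.358 and 0.0328, 96.5 and 0.564, and 276 and 268 RPKM. All 3 were highest in the libraries labelled cKO CLT, lower in Ctrl CLT 1, and at most 1.48 RPKM elsewhere. *Flg2*, a filaggrin relative, was at 0.00379 and 0, 0 and 0, 3.87 and 0.0147, and 15.0 and 14.2 RPKM. *Rptn*, repetin, which also marks tongue papillae, was at 0.918 and 0.0269, 1.18 and 0.718, 1.64 and 0.0726, and 4.99 and 4.70 RPKM. *Hrnr*, hornerin, was at 0.00818 and 0.00698, 0.0389 and 0.0222, 0.487 and 0, and 1.88 and 1.86 RPKM. *Rptn* was lowest in Ctrl CLH 2.

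All 6 fused-type genes were higher without overlap in the libraries labelled cKO CLT, as were 28.6% of all genes. Of these, *Crnn*, *Flg2*, *Hrnr* and *Tchhl1* passed the filter only through the libraries labelled cKO CLT, where they were high. The log2 difference was 5.59 ± 2.70 (SE, limma adjusted p = 0.214) for *Tchh*, 5.10 ± 2.44 (SE, limma adjusted p = 0.210) for *Crnn* and 1.24 ± 0.27 (SE, limma adjusted p = 0.0774) for *Hrnr*. All 6 were called higher without Ctrl CLT 1 and also without Ctrl CLT 2, *Tchh* by 9.44 (limma adjusted p = 1.5e-06) and 1.75 (limma adjusted p = 0.00051), where these fits called 31.4% and 29.1% of the genes tested higher. The SE of *Tchh* with both controls came from 2 values that were 509 and 1.48 RPKM, supported by 86736 and 229 reads. *Kprp*, keratinocyte proline-rich protein, was at 0.0106 and 0, 0.0868 and 0.0248, 4.46 and 0, and 14.1 and 13 RPKM in the libraries labelled Ctrl CLH, cKO CLH, Ctrl CLT and cKO CLT, respectively. *Crct1*, a cysteine-rich C-terminal protein of the complex, was at 0.851 and 0, 0.537 and 0.472, 111 and 0.157, and 285 and 316 RPKM. The pair had the same order of libraries as *Ivl*, and differed in CLT by 2.64 ± 0.88 (SE, limma adjusted p = 0.122) and 4.72 ± 2.32 (SE, limma adjusted p = 0.219). Leaving out Ctrl CLT 1, they were called higher, by 3.86 (limma adjusted p = 1.3e-05) and 8.02 (limma adjusted p = 1.8e-06), as they were without Ctrl CLT 2, by 1.41 (limma adjusted p = 0.00072) and 1.43 (limma adjusted p = 0.00061).

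**Figure D2:**
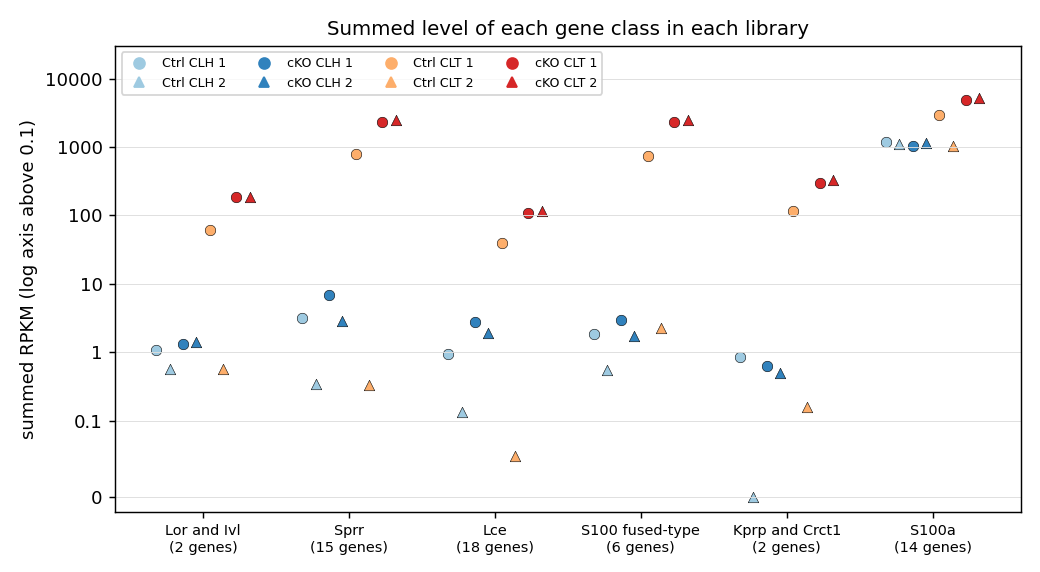
Summed RPKM (log axis above 0.1) of each class in each of the 8 libraries. The libraries labelled cKO CLT are highest and Ctrl CLT 1 next in every class, and Ctrl CLT 2 is under 3 RPKM in all classes but S100a, whose sums stay between 1018 and 5198 RPKM.

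The S100a class was mixed. *S100a3*, a protein of the hair cuticle, was at 0.612 and 0.941, 0.583 and 1.47, 747 and 1.11, and 1954 and 2102 RPKM in the libraries labelled Ctrl CLH, cKO CLH, Ctrl CLT and cKO CLT, respectively, the highest mean level of all 57 members. *S100a14*, an epithelial S100 gene, was at 18.2 and 14.4, 21.4 and 19.5, 319.8 and 17.0, and 763 and 789 RPKM. *S100a6* had 83.4 and 90.3, 61.6 and 85.5, 359 and 129.8, and 678 and 748 RPKM. These had the libraries labelled cKO CLT on top with Ctrl CLT 1 next, but *S100a6* and *S100a14* were also clearly present in CLH and in Ctrl CLT 2. *S100a7a* followed the envelope genes, at 0.431 and 0.351, 0.720 and 0.502, 36.7 and 0.305, and 125 and 125 RPKM. The log2 difference in CLT was 5.67 ± 2.98 (SE, limma adjusted p = 0.240) for *S100a3*, 3.35 ± 1.47 (SE, limma adjusted p = 0.184) for *S100a14*, 1.72 ± 0.54 (SE, limma adjusted p = 0.113) for *S100a6* and 4.17 ± 1.71 (SE, limma adjusted p = 0.167) for *S100a7a*. *S100a3* was called higher by 9.91 (limma adjusted p = 1.5e-06) without Ctrl CLT 1, and without Ctrl CLT 2 by 1.44 (limma adjusted p = 0.00079), and the other 3 were called higher in both of these fits as well.

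Other S100a genes varied less between the libraries. *S100a11*, a widely expressed member, was at 462 and 454, 381 and 453, 501 and 429, and 469 and 463 RPKM in the libraries labelled Ctrl CLH, cKO CLH, Ctrl CLT and cKO CLT, respectively, so that its groups overlapped in CLT. The partner of annexin A2, *S100a10*, was at 159 and 152, 137 and 153, 289 and 138, and 205 and 217 RPKM, highest in Ctrl CLT 1. *S100a13* was at 27.0 and 23.6, 17.7 and 23.5, 35.2 and 34.2, and 24.9 and 23.7 RPKM, lower in both libraries labelled cKO CLT than in both labelled Ctrl CLT. Their differences in CLT were 0.01 ± 0.17 (SE, limma adjusted p = 0.980), 0.08 ± 0.40 (SE, limma adjusted p = 0.892) and -0.50 ± 0.13 (SE, limma adjusted p = 0.0951). The sign of *S100a10* and *S100a11* turned under quantile normalization and without Ctrl CLT 2, where the difference of *S100a10* was -0.45. For *S100a10* the direction depends on the control. The mean RPKM of the libraries labelled cKO CLT was 1.53 times Ctrl CLT 2 but 0.732 times Ctrl CLT 1. *S100a13* was called lower with either control left out, at -0.48 (limma adjusted p = 0.0101) and -0.52 (limma adjusted p = 0.0105). *S100a1*, known from striated muscle, was at 74.7 and 70.2, 63.2 and 80.4, 163 and 131, and 165 and 169.9 RPKM, higher in CLT than in CLH in both genotypes. *S100a4*, known from fibroblasts and leukocytes, was at 26.1 and 23.4, 23.5 and 25.6, 26.7 and 14.5, and 44.8 and 48.3 RPKM. For *S100a1* and *S100a4* the differences in CLT were 0.19 ± 0.18 (SE, limma adjusted p = 0.456) and 1.19 ± 0.32 (SE, limma adjusted p = 0.0955). For *S100a1*, the mean of the libraries labelled cKO CLT was 1.28 times Ctrl CLT 2 and 1.03 times Ctrl CLT 1. For *S100a4* it was 3.20 and 1.74 times, in that order.

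*S100a8* and *S100a9*, which encode the calprotectin pair of neutrophils and stressed keratinocytes, went against the class. *S100a8* was at 112 and 95.7, 123 and 93.6, 79.1 and 16.8, and 45.3 and 36.8 RPKM in the libraries labelled Ctrl CLH, cKO CLH, Ctrl CLT and cKO CLT, respectively. *S100a9* was at 172 and 143, 170.3 and 158, 115 and 28.9, and 13.6 and 16.8 RPKM. Both were highest in CLH, followed by Ctrl CLT 1. In the libraries labelled cKO CLT *S100a9* was below both labelled Ctrl CLT, while *S100a8* lay between them. The difference in CLT was -1.87 ± 0.71 (SE, limma adjusted p = 0.148) for *S100a9* and 0.15 ± 0.78 (SE, limma adjusted p = 0.900) for *S100a8*, and the latter turned to -0.94 (limma adjusted p = 0.00461) without Ctrl CLT 2 and was 1.23 (limma adjusted p = 0.00115) without Ctrl CLT 1. *S100a9* was called lower in both of these fits, at -2.85 (limma adjusted p = 0.00023) and -0.89 (limma adjusted p = 0.00376), in that order. In the CLH libraries *S100a9* stood above *S100a8* per length, and in those labelled cKO CLT *S100a8* stood above *S100a9*. The 9 neutrophil markers measured summed to 111 and 83, 117 and 106, 67.3 and 21.2, and 4.03 and 3.66 RPKM in the same order of groups, with *Ngp*, the most abundant, at 43.5 and 34.5, 42.1 and 39.0, 24.0 and 6.96, and 0 and 0 RPKM. *Elane* and *Ngp* had 0 RPKM in the libraries labelled cKO CLT. Of the 9, 8 were lower there than in both labelled Ctrl CLT and 1, *Cxcr2*, was higher (all genes: 24.9% lower and 28.6% higher). By limma, 0 of them passed the adjusted threshold. Before adjustment, 5 lower genes and 1 higher one had p under 0.05, against 16.4% and 19.8% of the genes tested. The part of neutrophils in the *S100a8* and *S100a9* values was not tested.

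Ctrl CLT 1 held a similar fraction of the cKO CLT level for every abundant member outside the S100a class (the plot of Ctrl CLT 1 against cKO CLT). Among the 15 members outside the S100a class with a mean of at least 10 RPKM in the libraries labelled cKO CLT, it stood at 26.5% to 39.1% of that mean, with a median of 33.8%. The lowest was *Flg2* and the highest *Lor*. Class medians were 35.3% for *Lor* and *Ivl*, 32.2% for Sprr, 35.6% for Lce, 30.8% for the fused-type genes and 34.9% for *Kprp* and *Crct1*. Ctrl CLT 2 stood at 0% to 1.19% for the same 15 genes. Among 12 S100a genes the span in Ctrl CLT 1 was 29.4% to 757%, with *S100a3* at 36.8% and *S100a7a* at 29.4% inside the range of the envelope genes. Over all genes with a mean of at least 10 RPKM in the libraries labelled cKO CLT the median was 86.7%.

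The marker lists of hair and of 2 non-epithelial cell types had medians close to that of the envelope genes. Ctrl CLT 1 stood at a median of 34.7% of the cKO CLT mean for 9 hair shaft keratins (31.7% to 37.3%) and 33.4% for 5 inner root sheath keratins (31.0% to 37.4%). It was 33.2% for 6 skeletal muscle genes (31.4% to 37.8%) and 31.6% for 5 melanocyte genes (24.1% to 37.6%). Summed levels of hair shaft keratins were 0.302 and 0.393, 0.348 and 0.281, 1035 and 0.855, and 2877 and 3137 RPKM in the libraries labelled Ctrl CLH, cKO CLH, Ctrl CLT and cKO CLT, respectively. Inner root sheath keratins summed to 11.3 and 13.3, 9.73 and 12, 2955 and 12.9, and 8599 and 9402 RPKM, led by *Krt71*. Skeletal muscle genes, led by *Acta1*, summed to 30.1 and 26.6, 27.8 and 31.0, 661 and 50.4, and 1816 and 1997 RPKM. All of these were high in the libraries labelled cKO CLT, lower in Ctrl CLT 1 and low elsewhere. Melanocyte genes, led by *Dct*, summed to 3.16 and 2.78, 3.02 and 3.13, 130.4 and 8.62, and 401 and 402 RPKM. By limma, none of these 4 lists had a gene past the adjusted threshold in CLT with both controls. At an unadjusted p under 0.05 there were 0, 0, 2 and 3 genes, all higher, against 19.8% of the genes tested. All 9, 5, 7 and 5 genes measured were higher without overlap in the libraries labelled cKO CLT, as were 28.6% of all genes. How far the content of hair follicle, muscle or pigment cells in a library sets the level of the complex was not tested.

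**Figure D3:**
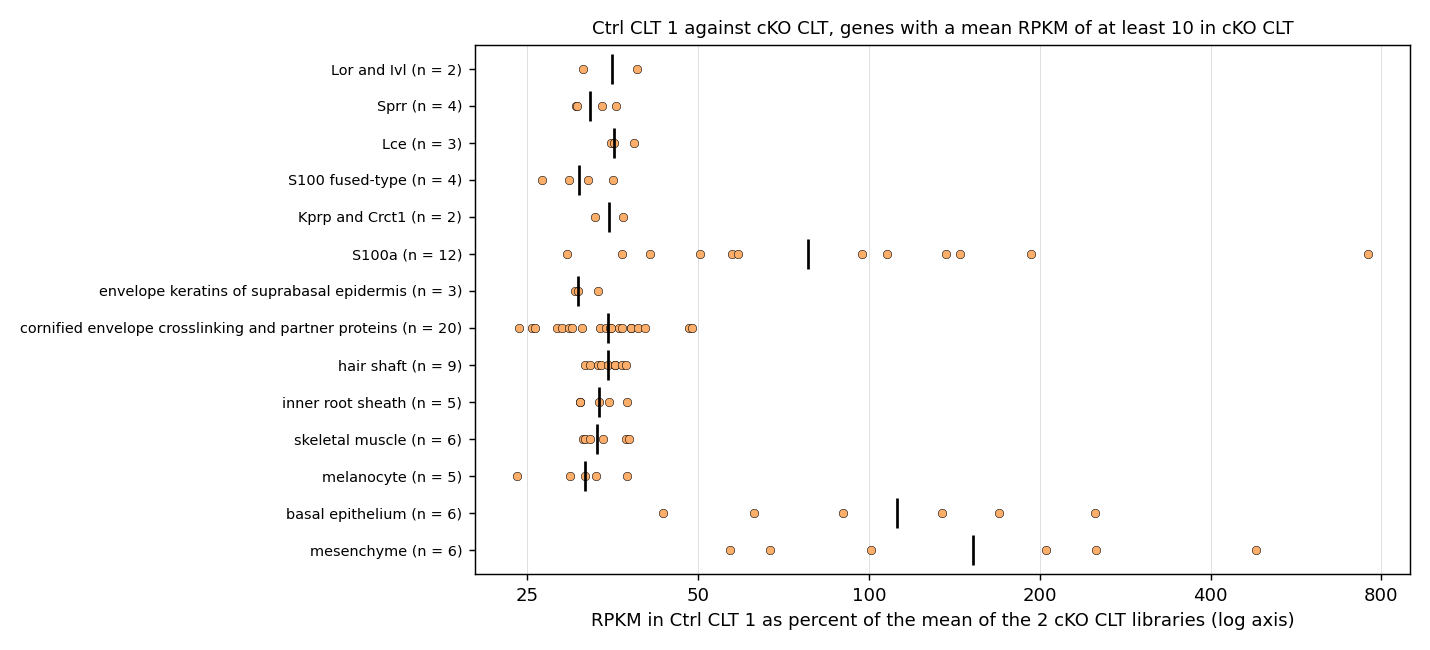
RPKM in Ctrl CLT 1 as a percent of the mean of the 2 libraries labelled cKO CLT (log axis), 1 point per gene with a cKO CLT mean of at least 10 RPKM and a black bar at the median, for the 6 classes and 8 marker lists. Envelope genes, suprabasal keratins, crosslinking and partner genes, hair keratins, muscle and melanocyte genes have medians of 30.7% to 35.6%. The crosslinking and partner genes run from 24.2% to 48.9%, and S100a, basal epithelial and mesenchymal genes spread widely.

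The same comparison in CLH, the stem cell part, concerned low levels. Outside S100a the summed level was 7.83 and 1.6 RPKM in the libraries labelled Ctrl CLH and 14.6 and 8.35 in those labelled cKO CLH. The libraries labelled cKO CLH lay above both controls for 18 of the 57 members and below for 2, with 30 overlapping and 7 at 0 in all 4. Over all genes the shares were 15.3% higher and 14.4% lower. The 9 Lce genes among the 18 rested on 1 to 16 reads per library labelled cKO CLH, so their differences were at the edge of what this depth can show. The highest of the 18 by read number outside S100a was *Tchh*, at 0.544 and 0.454 RPKM in the libraries labelled Ctrl CLH and 0.702 and 0.610 in those labelled cKO CLH, followed by *Lor*, at 1.08 and 0.418 RPKM in the libraries labelled Ctrl CLH and 1.33 and 1.41 in those labelled cKO CLH. *Sprr1a* was at 0.0736 and 0.0942 RPKM in the libraries labelled Ctrl CLH and 1.95 and 0.385 in those labelled cKO CLH, which rested on 2 and 2 against 52 and 9 reads.

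By limma, 0 members and 0% of the genes tested were called in CLH in either direction, and voom likewise called 0. At an unadjusted p under 0.05 there were 2 members, *Crnn* and *Lce1i*, both higher, where 4.83% of the genes tested were so called as higher and 2.42% as lower. The median over the 57 members was 0.06 (0.03 without Ctrl CLH 2), against -0.01 over the genes tested. Abundant S100a genes were not called: *S100a11*, *S100a10*, *S100a6* and *S100a1* differed by -0.14, -0.10, -0.25 and -0.02 on the log2 scale, with SEs of 0.11, 0.08, 0.17 and 0.13.

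In CLH, 1 control library, Ctrl CLH 2, stood apart, both for lining-epithelium genes and for the complex outside S100a. Members outside S100a summed to 1.6 RPKM there, against 7.83 in Ctrl CLH 1 and 14.6 and 8.35 in the libraries labelled cKO CLH. *Ivl* and *Lce3c* went the other way, with their highest CLH level in Ctrl CLH 2. The oral keratins *Krt13* and *Krt4* were at 21.8 and 0.0566 RPKM in the libraries labelled Ctrl CLH and 42.5 and 24.4 in those labelled cKO CLH, and at 6.07 and 0.262 RPKM in the libraries labelled Ctrl CLH and 12.3 and 7.11 in those labelled cKO CLH, respectively. *Sprr3* was at 1.93 and 0.0304 RPKM in the libraries labelled Ctrl CLH and 3.03 and 1.44 in those labelled cKO CLH. Values of *Rptn* were 0.918 and 0.0269 RPKM in the libraries labelled Ctrl CLH and 1.18 and 0.718 in those labelled cKO CLH. In each of these 4 genes Ctrl CLH 2 was lowest and the other 3 libraries lay well above it. *Krtdap*, a keratinocyte differentiation gene of the partner list, was also lowest in Ctrl CLH 2, at 4.78 and 0.490 RPKM in the libraries labelled Ctrl CLH and 6.43 and 4.60 in those labelled cKO CLH. The oral and tongue list as a whole summed to 29.9 and 0.854, 57.0 and 33.6, 31.8 and 3.60, and 78.4 and 84.2 RPKM in the libraries labelled Ctrl CLH, cKO CLH, Ctrl CLT and cKO CLT, respectively, where *Krt36* and *Krt84* made up most of the sum in the libraries labelled cKO CLT. In CLT, 2 of its 5 genes were higher and 1 lower without overlap (all genes: 28.6% and 24.9%), and limma called 0. Before adjustment, p was under 0.05 for 1 higher and 1 lower gene, and for 19.8% and 16.4% of the genes tested. The part of lining epithelium in the CLH values was not tested.

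To test whether the difference between cKO and Ctrl was itself larger in CLT than in CLH, an interaction term was fitted over all 8 libraries. Its p-values assume the same spread in every group. The median absolute log2 difference between replicates was 0.404 in Ctrl CLT and 0.0922 to 0.113 in the other groups, so this assumption was not met. *Hrnr* was the only member past the adjusted threshold, with an interaction of 1.20 ± 0.29 (SE, limma adjusted p = 0.0390) on the log2 scale. It entered the test only through the libraries labelled cKO CLT, where it was high, so this call describes these libraries. Its levels were 0.00818 and 0.00698 RPKM in the libraries labelled Ctrl CLH and 0.0389 and 0.0222 in those labelled cKO CLH, and 0.487 and 0 RPKM in the libraries labelled Ctrl CLT and 1.88 and 1.86 in those labelled cKO CLT. Of all genes tested, 8.05% had a positive and 9.58% a negative interaction past the threshold, against 1 of the 38 members tested. Members with larger interaction values, *Tchh* at 5.45 ± 3.08 (SE, limma adjusted p = 0.239), *Sprr4* at 5.83 ± 3.38 (SE, limma adjusted p = 0.248) and *S100a3* at 5.51 ± 3.41 (SE, limma adjusted p = 0.275), had wider errors and did not pass. Without Ctrl CLT 1, 33 members had a positive and 1 a negative interaction past the threshold, as had 28.5% and 34.7% of all genes tested. For the fit without Ctrl CLT 2 these were 27 and 2 members, and 26.6% and 20.1% of all genes tested. In both fits the lone Ctrl CLT library was assumed to vary like the other 3 groups. Leaving out any of the other 6 libraries left 0 members past it. *Hrnr* also missed the threshold with voom (adjusted p = 0.402) and with limma at a pseudocount of 0.1 (adjusted p = 0.183) or 0.5 (adjusted p = 0.0611). The median interaction over the 57 members was 1.11, and 0.57 without Ctrl CLT 2.

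The change from stem cells to progenies was compared within each genotype. Between the libraries labelled cKO CLT and cKO CLH, limma called 33 of the 38 members tested higher in CLT and 3 lower. Of all genes tested, 28.9% were called higher and 45.1% lower. Since 22 of the 38 passed the filter only through the libraries labelled cKO CLT, where they were high, the member counts only describe these libraries. The 33 were *Lor* and *Ivl*, 4 Sprr, 11 Lce, 6 fused-type, *Kprp* and *Crct1*, and 8 S100a genes. The 3 lower ones were *S100a9*, *S100a8* and *Sprr3*. *Tchh* rose by 10.02 ± 0.09 (SE, limma adjusted p = 5.1e-11), *Sprr4* by 10.05 ± 0.09 (SE, limma adjusted p = 5.1e-11) and *S100a3* by 10 ± 0.18 (SE, limma adjusted p = 1.1e-09). As a ratio of mean RPKM these were 2619-fold for *Tchh* and 1973-fold for *S100a3*. The ratio of *S100a3* rests on 0.583 and 1.47 RPKM (14 and 31 reads) in the libraries labelled cKO CLH, and it changes much with either left out. *Flg2* had no read in either library labelled cKO CLH and was at least 1176-fold higher. Among the lower genes, *S100a9* fell by 3.36 ± 0.11 (SE, limma adjusted p = 3e-08), *S100a8* by 1.37 ± 0.14 (SE, limma adjusted p = 4.3e-05) and *Sprr3* by 1.65 ± 0.21 (SE, limma adjusted p = 0.00012).

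Scaling mattered here. The median over the genes tested was -0.18 with the RPKM as deposited and 0.02 after median-of-ratios scaling, which turned the split over all genes from 4084 higher and 6384 lower to 5270 and 4884. The members went from 33 and 3 to 35 and 3. *S100a11* differed by 0.16 ± 0.11 (SE, limma adjusted p = 0.209), and it was called higher after median-of-ratios scaling, by 0.39 (limma adjusted p = 0.0121), while its sign turned under quantile normalization. For the libraries labelled Ctrl, 0 members were called between CLT and CLH by limma or voom, where 0.00707% of the genes tested were called higher and 0% lower. Before adjustment, p was under 0.05 for 2 members, *S100a1* and *S100a13*, both higher, and for 0 lower ones, where 4.15% and 9% of the genes tested were so called. Without Ctrl CLT 1, 2 members were called higher (*S100a1* and *S100a16*) and 2 lower (*S100a8* and *S100a9*), with 1.91% and 1.4% of all genes tested. Leaving out Ctrl CLT 2 gave 32 higher and 0 lower, with 18.4% and 34.9% of all genes tested. In these 2 fits the spread came from the Ctrl CLH pair alone, and the lone Ctrl CLT library was assumed to vary like it. The median over the 57 members was 0.36 with both controls, 0 without the first and 0.78 without the second. The comparisons of cKO with Ctrl and of CLT with CLH share libraries.

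Envelope precursors are laid down in cells that also switch on suprabasal keratins, so 5 of these were read beside the complex. *Krt10* was at 7.18 and 4.09, 11.1 and 6.78, 138 and 2.84, and 409 and 419 RPKM in the libraries labelled Ctrl CLH, cKO CLH, Ctrl CLT and cKO CLT, respectively. *Krt77* was at 0.0676 and 0.0216, 0.103 and 0.197, 107 and 0.131, and 340.3 and 364 RPKM. *Krt1* was at 0.641 and 0.456, 1.05 and 0.788, 19.9 and 0.292, and 66.6 and 63.2 RPKM. All had the order of libraries seen for *Ivl*, and *Krt10* stood well above *Krt1* in CLH. *Krt2*, which marks late interfollicular epidermis, did not exceed 0.295 RPKM in any library. All 5 were higher without overlap in the libraries labelled cKO CLT, as were 28.6% of all genes. Of the 4 tested, 0 passed the adjusted threshold of limma in CLT. At an unadjusted p under 0.05, 1 was higher, as were 19.8% of the genes tested.

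Of 22 genes for crosslinking and partner proteins, all were higher without overlap in the libraries labelled cKO CLT than in those labelled Ctrl CLT, as were 28.6% of all genes. By limma, 0 passed the adjusted threshold. At an unadjusted p under 0.05, 12 were higher and 0 lower, against 19.8% and 16.4% of the genes tested. The list summed to 62.8 and 40.8, 78.4 and 67.3, 1013 and 61.7, and 2749 and 2944 RPKM in the libraries labelled Ctrl CLH, cKO CLH, Ctrl CLT and cKO CLT, respectively. Its median difference in CLT was 3.33, and it became 4.81 without Ctrl CLT 1 and 1.47 without Ctrl CLT 2. *Asprv1*, the protease that processes profilaggrin, was at 2.66 and 0.705, 2.42 and 1.94, 139 and 0.540, and 387 and 421 RPKM. *Krtdap* was at 149.8 and 0.330 RPKM in the libraries labelled Ctrl CLT and 399 and 388 in those labelled cKO CLT. Among the transglutaminases, *Tgm1* was at 17.4 and 12.3, 22 and 18.9, 30.6 and 22.1, and 60.8 and 66.0 RPKM. *Tgm3*, the enzyme that acts on trichohyalin, was at 0.219 and 0.0905, 0.562 and 0.255, 17.9 and 0.165, and 59.7 and 60.7 RPKM. *Tgm1* was thus present in CLH while most substrates were near 0. *Tgm3*, like *Tchh*, was highest in the libraries labelled cKO CLT, lower in Ctrl CLT 1 and low elsewhere. Between the libraries labelled cKO CLT and cKO CLH, limma called all 22 higher in CLT, and 28.9% of all genes tested. Several of the list, such as *Tgm3*, passed the filter only through the libraries labelled cKO CLT, so this count is a description.

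Reported regulators of epidermal differentiation were less uniform. Of 27, 21 were higher without overlap in the libraries labelled cKO CLT, 4 lower and 2 overlapping (all genes: 28.6% higher and 24.9% lower). With limma, 1 of the 26 tested, *Tfap2a*, rose and 1, *Satb1*, fell in CLT, as did 0.0777% and 1.68% of the genes tested. *Satb1*, a chromatin organiser reported to shape this locus in epidermis, was at 38.9 and 44.2, 37.9 and 38.0, 27.1 and 34.9, and 1.62 and 1.67 RPKM in the libraries labelled Ctrl CLH, cKO CLH, Ctrl CLT and cKO CLT, respectively. Its difference in CLT was -3.58 ± 0.20 (SE, limma adjusted p = 0.0217), with both Ctrl CLT libraries above both labelled cKO. *Tfap2a*, which encodes AP-2alpha, was at 7.56 and 9.40, 8.47 and 7.74, 9.18 and 7.26, and 28.4 and 26.0 RPKM, a difference of 1.62 ± 0.18 (SE, limma adjusted p = 0.0486). Both calls were lost with voom (adjusted p = 0.0521 for *Satb1* and 0.0668 for *Tfap2a*) and with limma and no filter (adjusted p = 0.0838 and 0.0922). They were also lost with either library labelled cKO CLT left out (limma adjusted p = 0.168 and 0.169 for *Satb1*, 0.441 and 0.462 for *Tfap2a*), and that of *Tfap2a* also at a pseudocount of 0.1, with median-of-ratios or quantile scaling and with no variance trend (limma adjusted p 0.0503 to 0.0553). *Grhl1*, a grainyhead-like factor, was at 0.724 and 0.643, 0.747 and 0.834, 38.5 and 0.937, and 138 and 135 RPKM, a difference of 3.97 ± 1.53 (SE, limma adjusted p = 0.153). It had the order of libraries of the envelope genes. Ctrl CLT 1 stood at 28.3% and Ctrl CLT 2 at 0.689% of its cKO CLT mean, so the difference depends on which control is used. *Dlx3*, the most abundant of the list, was at 137 and 135, 144 and 142, 125 and 120.5, and 134 and 140.3 RPKM, which is close to even. *Klf4* was at 30.3 and 30.3, 29.4 and 29.8, 31.5 and 22.2, and 58.9 and 54.2 RPKM. Ctrl CLT 1 stood at a median of 44.0% of the cKO CLT mean over the 22 regulators with a mean of at least 10 RPKM.

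Basal epithelial genes, led by *Krt5*, summed to 599 and 573, 629 and 698, 1476 and 848, and 1909 and 2183 RPKM in the libraries labelled Ctrl CLH, cKO CLH, Ctrl CLT and cKO CLT, respectively, with 3 of 6 higher and 2 lower without overlap in the libraries labelled cKO CLT, where 28.6% and 24.9% of all genes were. Mesenchymal genes, led by *Col1a1*, summed to 4041 and 3636, 4639.9 and 4512, 2872 and 4093, and 2264 and 2516 RPKM, with 1 of 8 higher and 5 lower. Macrophage and other leukocyte genes, led by *Lyz2*, summed to 198 and 192, 186 and 204, 144 and 196, and 111 and 108 RPKM, with 1 of 7 higher and 6 lower. Mesenchymal and leukocyte genes were thus present in every library of a tissue labelled as dental epithelial cells. The 3 erythroid genes measured summed to at most 7.29 RPKM. By limma, 0 genes of these 4 lists passed the adjusted threshold in CLT. At an unadjusted p under 0.05 there were 1 higher and 2 lower basal genes, 1 and 5 mesenchymal, 1 and 2 leukocyte and 0 erythroid genes. Over the genes tested these shares were 19.8% higher and 16.4% lower.

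The interval that holds the 57 members holds 11 other genes of the table. *Prr9*, a proline-rich gene between *Lor* and the Sprr2 cluster, was at 0.270 and 0.252, 0.2 and 0.172, 755 and 0.731, and 2465 and 2288 RPKM in the libraries labelled Ctrl CLH, cKO CLH, Ctrl CLT and cKO CLT, respectively. *Pglyrp4*, a peptidoglycan recognition protein gene, was at 0.0652 and 0, 0.0797 and 0.0304, 2.53 and 0, and 8.47 and 8.13 RPKM. Values of *2310050C09Rik* were 0 and 0, 0 and 0, 4.42 and 0, and 12.2 and 15.3 RPKM. *Prr9* was therefore at a higher level per length in the libraries labelled cKO CLT than any of the 57 members, and all 3 had the order of libraries of *Ivl*. *Pglyrp3* was at 0.955 and 0 RPKM in the libraries labelled Ctrl CLT and 3.09 and 2.88 in those labelled cKO CLT. The other 7 genes did not exceed 0.602 RPKM in any library. Along the chromosome, the order was 12 S100a genes, *Lor*, the Sprr genes, *Ivl*, the Lce genes with *Kprp* and *Crct1* among them, the fused-type genes and finally *S100a11* and *S100a10*. A stretch without members ran from the end of *S100a9* (90695691) to the start of *Lor* (92080271). The high genes of the libraries labelled cKO CLT lay on either side of this stretch. Genes near 0, such as most Sprr2 and Lce3 genes, lay among the high ones.

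Promoter windows (250 bases before to 50 after the gene start, RefSeq, GRCm38.p6) were matched for 49 of the 57 members, because genes with the same order of libraries may share letters near their start. The AP-1 motif TGANTCA, on either strand, was in the window of 9 of 13 Sprr genes, 4 of 6 fused-type genes, both *Lor* and *Ivl*, 2 of 11 S100a genes and 0 of 17 Lce genes, against 8.97% of the 27025 genes with a window. The TATA motif TATAAA, also on either strand, was found for 10 of 13 Sprr, 3 of 6 fused-type, 4 of 11 S100a and 3 of 17 Lce genes. It was also found for *Lor* and *Ivl*, as against 15.7% of all. The AP-2 motif GCCNNNGGC was found for 3 of 11 S100a genes and 2 of 38 others, against 18.5% of all. A gene counted when any of its windows held the motif. *S100a3* and *S100a16* had more than 1 window, and not every window of either held a match. Neither AACCGGTT (grainyhead-like) nor TTGCGCAA (C/EBP) was in any of the 49, against 0.174% and 0.207% of all. These are matches of letters, not sites. Within Sprr, 6 of the 9 genes with AP-1 letters (*Sprr2b*, *Sprr2d*, *Sprr2e*, *Sprr2f*, *Sprr2i* and *Sprr2k*) had values at or near 0 in every library, which are uncertain for such close copies, and the window of *Sprr4* held neither AP-1 nor TATA letters. None of these shares was tested.

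The windows of the most abundant member of 4 classes are given as examples, written 5′ to 3′ with the letters of any of the 5 motifs in capitals: *Ivl* (chr3:92573686-92573985, minus strand), *Sprr1a* (chr3:92485832-92486131, minus strand), *Lce1m* (chr3:93019012-93019311, minus strand) and *Tchh* (chr3:93442080-93442379, plus strand). *Sprr1a* holds 2 AP-1 matches and 1 TATA match, *Ivl* 1 of each, *Lce1m* 1 TATA and 1 AP-2 match, and *Tchh* none.
Ivl: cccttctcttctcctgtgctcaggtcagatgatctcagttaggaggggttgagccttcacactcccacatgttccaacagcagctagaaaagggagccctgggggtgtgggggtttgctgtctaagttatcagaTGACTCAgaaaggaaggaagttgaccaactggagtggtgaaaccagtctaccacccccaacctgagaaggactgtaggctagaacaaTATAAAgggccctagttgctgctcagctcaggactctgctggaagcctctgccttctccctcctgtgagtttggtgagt
Sprr1a: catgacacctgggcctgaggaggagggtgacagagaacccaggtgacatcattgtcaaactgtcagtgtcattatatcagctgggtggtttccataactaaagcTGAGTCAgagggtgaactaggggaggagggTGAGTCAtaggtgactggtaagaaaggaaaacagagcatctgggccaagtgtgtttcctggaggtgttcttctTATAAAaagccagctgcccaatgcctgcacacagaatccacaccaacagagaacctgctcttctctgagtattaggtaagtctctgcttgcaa
Lce1m: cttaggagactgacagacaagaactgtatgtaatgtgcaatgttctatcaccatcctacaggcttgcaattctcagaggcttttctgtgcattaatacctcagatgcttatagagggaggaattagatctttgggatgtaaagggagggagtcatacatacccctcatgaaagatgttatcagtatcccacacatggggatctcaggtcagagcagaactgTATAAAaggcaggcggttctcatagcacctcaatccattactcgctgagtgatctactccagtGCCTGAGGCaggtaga
Tchh: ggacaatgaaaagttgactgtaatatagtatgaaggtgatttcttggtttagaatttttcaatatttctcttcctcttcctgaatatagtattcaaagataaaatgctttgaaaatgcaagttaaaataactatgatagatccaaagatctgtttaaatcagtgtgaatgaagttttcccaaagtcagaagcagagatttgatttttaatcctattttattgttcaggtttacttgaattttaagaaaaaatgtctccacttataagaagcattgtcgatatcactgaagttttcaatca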

How the data were processed

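RNA-seq of CLH and CLT tissue was used, with 2 libraries in each of 4 groups taken from the sample titles. Per the submitters' processing notes, the authors used FastQC 0.72, Trim Galore 0.4.3.1, STAR 2.6.0b-1, featureCounts 1.6.3 and DESeq2 2.11.40.2 with mm10, and they deposited 1 table of RPKM with a coding length per gene. The counting options, which decide how reads of close copies are treated, are not given in the sources used here. RPKM times length gave whole reads for 100% of values (tolerance 0.05 reads). From log2(RPKM + 1), limma 3.58.1 (R 4.3.3, eBayes with a variance trend) was fitted over the 4 libraries compared, and the interaction over all 8, on the 14148 genes that reached an RPKM of 1 in 2 or more libraries. Calls used adjusted p (Benjamini-Hochberg) under 0.05. On simulated data the fits recovered most planted changes, and called unchanged genes more often than the threshold allows, most of them very short RNAs. The simulation gave every group the same spread, unlike the Ctrl CLT pair of these data. It therefore does not show how many changes the fits that use Ctrl CLT can recover. A count of 0 was read as allowing up to 3 reads, for counting error only. Alternatives were other pseudocounts, scalings, filters, fits, voom and leaving out each library. Members and lists were chosen with earlier results of these data known. Named were *Med1*, the 5 most abundant genes per class, up to 12 past the threshold, *Lor*, *Ivl*, *Kprp*, *Crct1*, members against their class, S100a markers of other cells, and up to 5 genes per list. *Tgm1*, *Tgm3*, *Krt4*, *Krt13*, *Ngp*, *Elane*, *Cxcr2* and the other genes of the interval were named after their values were seen, and the percents of Ctrl CLT 1 and the 5 motifs were added then.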

Additional observations from a re-analysis of the deposited data

Results flagged for a closer look

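*Hrnr* was called by the interaction test over all 8 libraries, at 1.20 ± 0.29 on the log2(RPKM + 1) scale (limma adjusted p = 0.0390), which drew attention to it as a difference between tissues under the same contrast. It was at 0.00818 and 0.00698, 0.0389 and 0.0222, 0.487 and 0, and 1.88 and 1.86 RPKM in the libraries labelled Ctrl CLH, cKO CLH, Ctrl CLT and cKO CLT, respectively, from 152 and 0 reads in the libraries labelled Ctrl CLT and 563 and 541 in those labelled cKO CLT. It entered the test only through the libraries labelled cKO CLT, where it was high, so the call is a description and not support for a difference between tissues. Of 16 alternatives, 6 kept the call and 10 lost it: both smaller pseudocounts, the replicate block, voom, and leaving out any library labelled Ctrl CLH, cKO CLH or cKO CLT. The adjusted p was between 3.4e-05 and 0.402 over the alternatives, and it passed without Ctrl CLT 1 (3.4e-05) and without Ctrl CLT 2 (0.00128).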

How the results depend on the processing

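Calls between cKO and Ctrl in CLH (0 members and 0 genes) were the same in all 14 alternatives, and calls between the libraries labelled cKO CLT and cKO CLH (36 members, 10468 genes) stayed within 1.5 times in all 14. The other counts moved, and the cause was not tested beyond what each alternative leaves out. For cKO against Ctrl in CLT, members called went from 0 to 21 with all 8 libraries in 1 fit, and from 0 to 36 over the libraries left out (0 with either library labelled cKO CLT left out, 36 without Ctrl CLT 1, 35 without Ctrl CLT 2). Genes called went from 248 to 3 with no filter, 6183 with all 8 libraries in 1 fit and 0 with voom, and from 11 to 9838 over the libraries left out. For the interaction, members called went from 1 to 0 with a pseudocount of 0.1 or 0.5, the mean RPKM filter and voom, to 2 with quantile normalization and 3 with no filter, and from 0 to 34 over the libraries left out. Genes called went from 2494 to between 198 and 8932 over the libraries left out. Between CLT and CLH in Ctrl, members called went from 0 to 1 with all 8 libraries in 1 fit and from 0 to 32 over the libraries left out, and genes called from 1 to 2 (pseudocounts of 0.1 and 0.5, quantile normalization, mean RPKM filter), 0 (no filter, voom), 837 (all 8 libraries in 1 fit) and from 0 to 7537 over the libraries left out. Fitting all 8 libraries together for the interaction is its own design, so it has no such alternative.

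Replicate numbers are shared by the groups in the titles, and the study used 2 litters, but the labels do not say that a number marks a litter. With the replicate block, members called in CLT went from 0 to 14 and genes from 248 to 1744, interaction members from 1 to 0 and genes from 2494 to 1448, and Ctrl CLT against CLH genes from 1 to 5. Differences between same-numbered libraries correlated across genes at -0.192 for cKO against Ctrl in CLT, 0.0656 in CLH, 0.307 for CLT against CLH in cKO and 0.195 in Ctrl, each from 2 pairs. The crossed pairing, chosen after seeing the data, called 0 members and 9 genes in CLT.

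Signs turned for *S100a10* in CLT (0.08; -0.10 with quantile normalization, -0.45 to 0.61 over the libraries left out), *S100a11* in CLT (0.01; -0.36 with quantile normalization, -0.11 to 0.12 over the libraries left out) and between the libraries labelled cKO CLT and cKO CLH (-0.20 with quantile normalization), and *S100a8* in CLT (-0.94 to 1.23 over the libraries left out). With a pseudocount of 0.1, medians over the 57 members went from 1.19 to 2.23 (CLT), 0.06 to 0.34 (CLH), 1.11 to 1.66 (interaction), 1.30 to 2.39 (cKO CLT against CLH) and 0.36 to 1.01 (Ctrl CLT against CLH). Of the other alternatives for named members in CLT, 375 kept side and direction and 82 passed the threshold only there. The Sprr2 and Lce3 genes other than *Sprr2h* and *Lce3c* had at most 15 reads in any library, so their differences rest on few reads.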
